A study of Rattus norvegicus with 8 samples.

Results

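The transcripts described here are those of the inflammasome cytokines Il1b and Il18, 2 of the 41078 transcripts listed for each rat. Il1b is the row ENSRNOT00000006308.4 and Il18 the row ENSRNOT00000077303.1. The values carry no gene names. The rows were chosen by the estimated counts of the CCI rats, which match the points that the study plotted under those gene names. The CCI and Sham levels are therefore a description. No p-value of either cytokine is printed, and whether a test called them is given only as a count beside the share of all transcripts called. Any further transcripts of Il1b or Il18 remain unnamed in the values and are not included.

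Spinal cord (SC) segments L4-L6 of adult male Sprague-Dawley rats were taken on postoperative day 10 and sequenced as RNA, each rat in its own library. In the 4 CCI rats, loose ligatures had been tied around the left sciatic nerve (chronic constriction injury), which gives a model of neuropathic pain. The 4 Sham rats had surgery that reached the nerve and left it untied. The labels name no engineered allele and no drug for either group, and they do not give the side of the cord that was taken.

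Il1b encodes interleukin-1β and Il18 encodes interleukin-18. Both are made as inactive precursors that caspase-1, activated in an inflammasome such as the NLRP3 complex, cuts into the active cytokines. Transcription of Il1b is induced by inflammatory signals through NF-κB and C/EBPβ, while an IL-18 precursor is present in many resting cells. In the spinal cord both cytokines are known from activated glia, and IL-1β is known to sensitize pain pathways. The mRNA levels below do not show how much precursor was cut or released.

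The sequences before the annotated start of each gene are shown because the study places both cytokines below the transcription factor C/EBPβ, through Clec7a and NLRP3. The study tested C/EBPβ binding at the promoter of Clec7a, not at those of Il1b or Il18. After knockdown of C/EBPβ it measured the cytokines as protein. The sequences are therefore no check of its claim. Each is 250 bases long, comes from RefSeq on build GRCr8, and is written 5′ to 3′ on the strand of the gene. For Il1b the stretch is chr3:137036582-137036831 on the minus strand, and for Il18 it is chr8:59801822-59802071 on the plus strand. Capitals mark matches to 3 motifs searched on both strands, which are the TATA box core TATAAA, the core TTNNGNAA of C/EBP sites and the NF-κB consensus.
Il1b: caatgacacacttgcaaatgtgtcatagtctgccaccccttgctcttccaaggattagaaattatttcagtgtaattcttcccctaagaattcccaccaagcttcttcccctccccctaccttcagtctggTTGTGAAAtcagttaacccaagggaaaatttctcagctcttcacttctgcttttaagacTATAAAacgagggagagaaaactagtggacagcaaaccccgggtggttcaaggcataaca
Il18: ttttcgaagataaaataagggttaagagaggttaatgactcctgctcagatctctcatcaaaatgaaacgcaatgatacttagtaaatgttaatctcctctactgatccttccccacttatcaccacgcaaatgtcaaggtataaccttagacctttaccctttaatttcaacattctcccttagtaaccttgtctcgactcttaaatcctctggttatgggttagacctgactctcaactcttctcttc

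The Il1b stretch held 1 TATAAA match, which begins 60 bases before the annotated start, and 1 C/EBP match, TTGTGAAA, which begins 119 bases before it. These matches did not overlap. The Il18 stretch held 0 matches to the 3 motifs, and neither stretch held the NF-κB consensus. Among 33469 promoter stretches of the same length, 12.9% held TATAAA, 37.2% the C/EBP core and 3.54% the NF-κB consensus, so a C/EBP match like that of Il1b is common. These are matches of letters, and neither a match nor its lack says anything of binding in these rats.

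Each rat's library summed to between 82926469 and 99820143 estimated counts, with between 27223 and 27826 transcripts above 0. Levels are given as CPM, the estimated count per 1000000 estimated counts of the rat's library, and they are not divided by transcript length. More transcripts stood at 4 than at 3 (654 to 711 against 551 to 610 per rat) and at 8 than at 7 (341 to 386 against 270 to 319). A value may thus not be a plain tally of single reads, in which case the small values below would rest on fewer reads than their size. This was not tested for the rows of Il1b and Il18. Cell-type markers of the tissue could not be checked because the values carry no gene names. In this bulk tissue, more cells that express a cytokine and more of its RNA per cell cannot be told apart.

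Il1b, the gene of interleukin-1β, was low in every rat and stood higher in each CCI rat than in each Sham rat. The estimated counts of Il1b were 33, 5, 37 and 28 in the rats Sham-1 to Sham-4. In the rats CCI-1 to CCI-4 they were 43, 108, 69 and 79. On the CPM scale the Sham rats had 0.376, 0.0543, 0.371 and 0.297, with a mean of 0.274 ± 0.151 (SD, n = 4). Sham-2 lay far below the other Sham rats, which lay close together.

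The CCI rats had 0.484, 1.30, 0.823 and 0.829 CPM of Il1b, with a mean of 0.860 ± 0.336 (SD, n = 4). CCI-2 was the highest and CCI-1 the lowest, while CCI-3 and CCI-4 differed by less than the counting error of either. The mean of the CCI rats was 3.13 times that of the Sham rats, and the median 2.48 times. The groups did not overlap, but they came close, since CCI-1 had 1.29 times the level of Sham-1. The exact 95% binomial interval of Sham-1, from 0.259 to 0.528 CPM, overlapped that of CCI-1, from 0.351 to 0.653 CPM. For Sham-2 the interval was 0.0176 to 0.127 CPM, below the intervals of the other Sham rats. These intervals cover counting error only and would be too narrow if one read added more than one count.

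Il18, the gene of interleukin-18, stood higher in CCI rats by a wider margin. Its estimated counts were 77, 19, 12 and 53 in Sham-1 to Sham-4. In CCI-1 to CCI-4 they were 230, 201, 199 and 140. The Sham rats had 0.876, 0.206, 0.120 and 0.561 CPM, with a mean of 0.441 ± 0.347 (SD, n = 4). The Sham rats spread over a 7.29-fold range, with Sham-1 and Sham-4 high and Sham-2 and Sham-3 low.

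The CCI rats had 2.59, 2.42, 2.37 and 1.47 CPM of Il18, with a mean of 2.21 ± 0.505 (SD, n = 4). CCI-1, CCI-2 and CCI-3 lay close together with overlapping intervals, and CCI-4 was lower. The mean of the CCI rats was 5.02 times that of the Sham rats, and the median 6.25 times. The lowest CCI rat, CCI-4, had 1.68 times the level of the highest Sham rat, Sham-1. Its interval of 1.24 to 1.73 CPM did not overlap the interval of Sham-1, 0.692 to 1.10 CPM. As for Il1b, the intervals cover counting error only and take each estimated count as 1 read. Whether they would stay apart if 1 read added more counts was not computed.

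**Figure D1:**
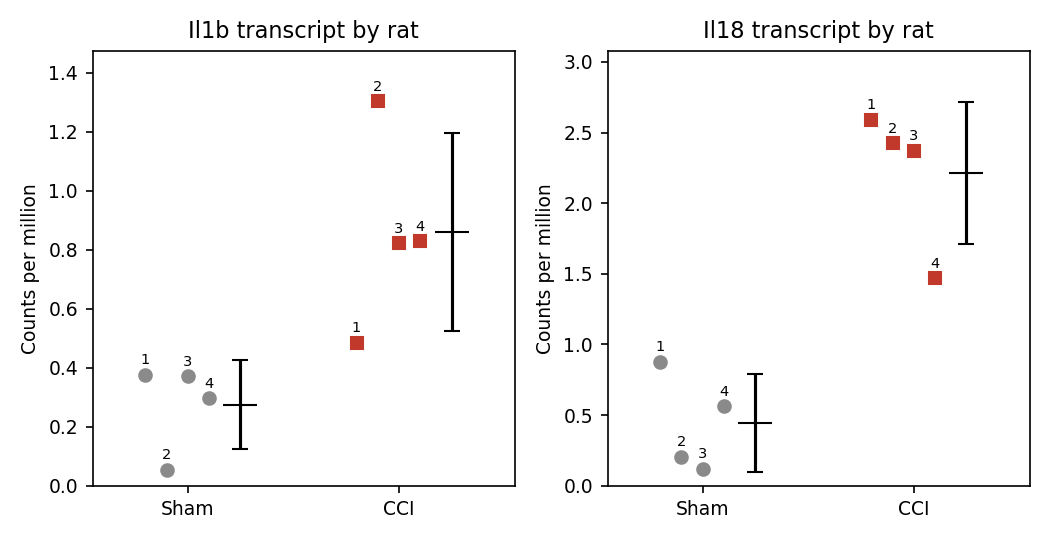
CPM (y axis) of the Il1b transcript (left) and the Il18 transcript (right) in each Sham and CCI rat, with rat numbers above the points and the mean ± SD of 4 rats beside them. For both cytokines every CCI rat lies above every Sham rat, with a small gap for Il1b (0.376 against 0.484 CPM) and a larger one for Il18 (0.876 against 1.47 CPM).

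Across all transcripts, CCI was compared with Sham by edgeR's quasi-likelihood test. In that fit the log2 fold change was 1.62 (standard error 0.55) for Il1b and 2.32 (standard error 0.58) for Il18, against a median of 0.00 over the 23110 transcripts tested. These fold changes were higher than those of 99.2% and 99.7% of the tested transcripts. Il1b and Il18 stood at percentiles 17.1 and 25.7 of mean log2 CPM among them. Transcripts of such low abundance vary more between rats, and ranks among transcripts of like abundance were not computed. At an adjusted p under 0.05 edgeR called 0 of the 2 cytokines, where it called 0.385% of all tested transcripts. At an unadjusted p under 0.05 it called 2 of 2, against 7.89% of all transcripts. At the criteria of the study, a fold change above 1.5 and an unadjusted p under 0.05, 2 of 2 were called as higher in CCI rats, against 2.07% of all transcripts. DESeq2 at an adjusted p under 0.05 called 1 of 2, Il18, against 1.7% of all transcripts called as higher. Groups without overlap, with every CCI rat above, were found for 2 of 2 and for 4.5% of all transcripts. Since the CCI values took part in choosing the rows, these counts are given beside the background and nothing is read from them.

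Both transcripts passed edgeR's filter on low counts. The filter asks for 0.111 CPM in 4 rats. For Il1b all 4 CCI rats and 3 of the 4 Sham rats reached that level, so the CCI rats alone were enough. For Il18 all 8 rats reached it. Without CCI-2, the rat with the highest Il1b, the log2 fold change of Il1b was 1.36 and edgeR no longer called it at the criteria of the study. In that fit 623 of 23537 tested transcripts were called in either direction. Without Sham-2, the rat with the lowest Il1b, the log2 fold change of Il1b was 1.28 and it was still called, with 660 of 23579 transcripts. Nothing is read from these calls either.

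**Figure D2:**
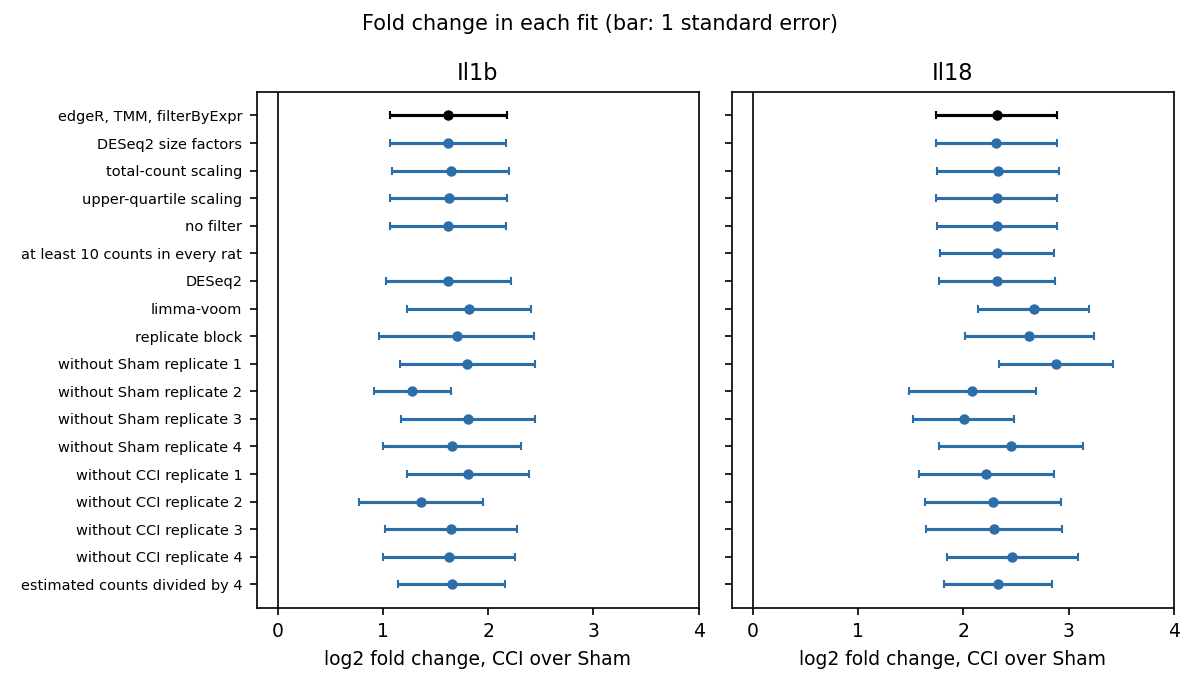
Log2 fold change of CCI over Sham (x axis) for Il1b (left) and Il18 (right) in each fit (rows), with bars of 1 standard error. The top row is the edgeR fit of the text, where Il1b is at 1.62 and Il18 at 2.32. All values lie above 0, from 1.28 to 1.82 for Il1b and from 2.001 to 2.88 for Il18, and Il1b has no value where at least 10 counts were required in every rat.

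The spread between rats was large for both cytokines. In edgeR the coefficient of variation between rats beyond counting error was 54.2% for Il1b and 57.0% for Il18, against a median of 23.0% over all tested transcripts. Both were near the values of 57.2% and 55.1% that edgeR's trend gives for transcripts of their abundance. The fit draws each transcript's value toward that trend, so this nearness is partly built in. In relative terms the Sham rats varied more than the CCI rats. The coefficient of variation of CPM was 55.1% in Sham and 39.1% in CCI rats for Il1b. For Il18 it was 78.8% in Sham and 22.8% in CCI rats, with 4 rats in each group, and this difference in spread was not tested. These coefficients of CPM include counting error, which is relatively larger at the lower counts of the Sham rats.

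The Il18 to Il1b ratio was computed in each rat from the estimated counts, where the library total cancels. Because the counts are not per length, the ratio is compared between rats and does not show which mRNA is more abundant. It was 2.33, 3.80, 0.324 and 1.89 in Sham-1 to Sham-4, with a median of 2.11. In CCI-1 to CCI-4 it was 5.35, 1.86, 2.88 and 1.77, with a median of 2.37. From the summed estimated counts of each group it was 1.56 in Sham and 2.58 in CCI rats, a measure without a spread over rats. The groups overlapped widely, and the CCI rat had the higher ratio in 9 of the 16 pairs of a CCI and a Sham rat. The Sham mean was 2.09 ± 1.43 (SD, n = 4) and the CCI mean 2.97 ± 1.67 (SD, n = 4), a difference below the SD of either group. The ratio thus shifted by less than the spread between rats, although Il18 had the larger fold change.

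The balance of the cytokines differed most in Sham-3. In that rat Il18 made up 24.5% of the summed estimated counts of both transcripts, with an exact 95% binomial interval of 13.3% to 38.9%. Shares in the other 7 rats ran from 63.9% in CCI-4 to 84.2% in CCI-1. Sham-2 had 79.2%, with a wide interval of 57.8% to 92.9% that spanned the whole interval of CCI-1. The interval of CCI-1, 79.4% to 88.4%, lay above those of CCI-2 (59.4% to 70.4%) and CCI-4 (57.2% to 70.3%) and met that of CCI-3 (68.6% to 79.4%) at its end. Dividing the estimated counts by 4, a choice made after the values were seen, widened the interval of Sham-3 to between 5.49% and 57.2% and that of CCI-1 to between 73.3% and 91.8%. On that scale the interval of Sham-3 lay below those of CCI-1 and CCI-3 and overlapped those of the other rats. The interval of CCI-1 then overlapped those of CCI-2, 53.2% to 75.5%, and CCI-4, 49.6% to 76.2%, from which it was separate on the values as deposited.

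**Figure D3:**
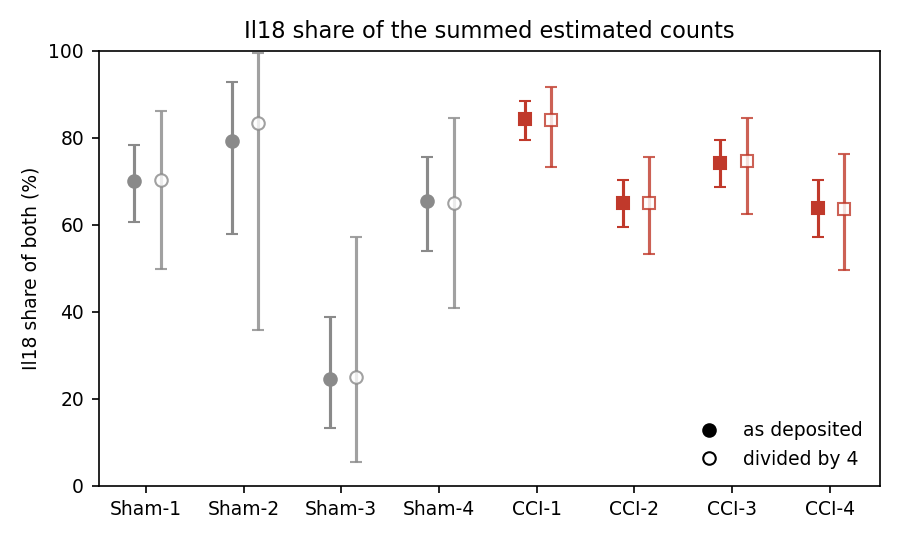
Il18 as a percentage of the summed estimated counts of Il18 and Il1b (y axis) in each rat (x axis), with exact 95% binomial intervals that cover counting error only. Filled symbols use the values as deposited and open symbols the values divided by 4. On the values as deposited, Sham-3, at 24.5%, is the single rat below 63.9%.

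Within a group, the rats high in one cytokine were not regularly high in the other. Among CCI rats, CCI-1 had the lowest Il1b and the highest Il18, and 2 of the 6 pairs of CCI rats were in the same order for both. Among Sham rats, Sham-1 was highest in both, Sham-3 was second in Il1b and lowest in Il18, and 4 of 6 pairs were in the same order. That count was 3 of 6 on the counts as deposited and with TMM scaling (edgeR's correction of library size), because Sham-1 and Sham-3 had nearly the same Il1b. Between the groups, all 16 pairs of a CCI and a Sham rat were in the same order. This had to be so, because the groups did not overlap in either cytokine and CCI was higher in both. It is no further sign that the cytokines move together. No correlation between the cytokines is given, since the 2 groups lay apart in Il18 and 4 rats per group are too few for one.

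**Figure D4:**
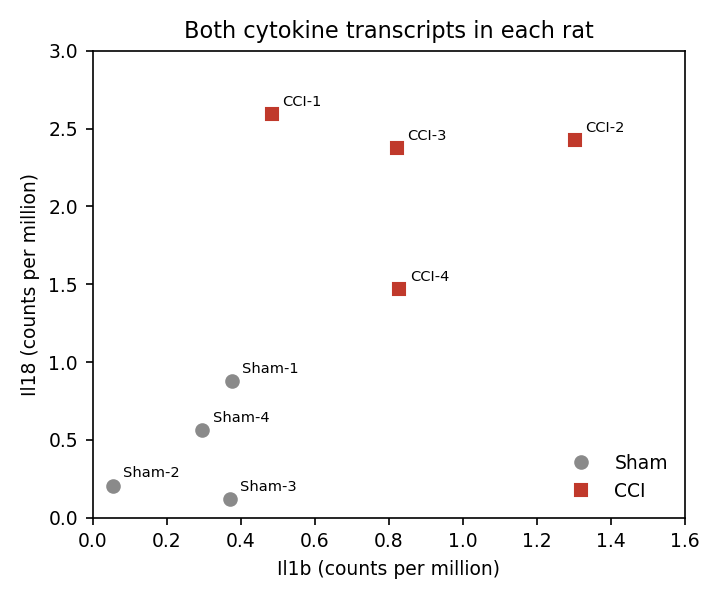
CPM of Il18 (y axis) against CPM of Il1b (x axis), with one point per rat. The CCI rats lie above and to the right of the Sham rats, and within the CCI rats the rat with the highest Il18 (CCI-1, 2.59 CPM) has the lowest Il1b (0.484 CPM).

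Both transcripts ranked in the lower part of the transcripts detected. Il1b stood at percentiles 27.6, 10.6, 27.8 and 25.9 of the transcripts above 0 in Sham-1 to Sham-4. In CCI-1 to CCI-4 it stood at 29.5, 38.1, 33.7 and 34.2. Il18 stood at percentiles 34.8, 22.6, 18.0 and 31.1 in the Sham rats. In the CCI rats it stood at 43.6, 43.6, 43.1 and 39.0. Every CCI rat had a higher percentile than every Sham rat for both transcripts, and every percentile was below 50. In CCI-2, where Il1b was highest, 17203 transcripts still had a larger estimated count than Il1b. These ranks compare counts that are not per length, so long transcripts rank higher than short ones at the same number of molecules.

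**Figure D5:**
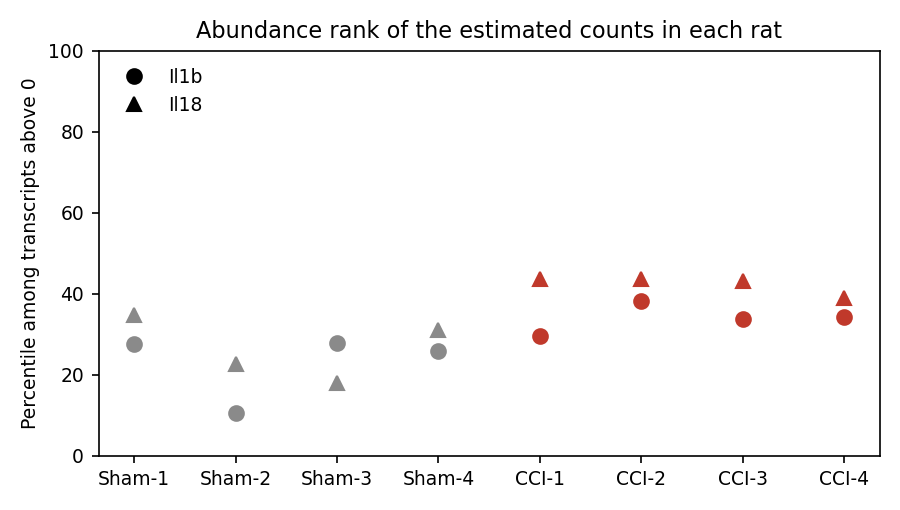
Percentile of the estimated count among the transcripts above 0 (y axis) in each rat (x axis), with circles for Il1b and triangles for Il18, grey for Sham and red for CCI. All points lie between 10.6 and 43.6, and Sham-3 is the single rat with Il1b above Il18.

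Likeness to other transcripts was measured by Pearson's r of log2 CPM over the 8 rats, as a description without a test, since the 8 points share their library and group. For Il18 the most similar of 23109 other transcripts was ENSRNOT00000003012.6 (r = 0.997), which had 463, 127, 80 and 343 estimated counts in the Sham rats and 1276, 1525, 1282 and 891 in the CCI rats. It shared with Il18 the high values of Sham-1 and Sham-4 and the low value of CCI-4. For Il1b the most similar was ENSRNOT00000084282.1 (r = 0.978), which changed little, from 1950 estimated counts in Sham-2 to 2517 in CCI-4. Scaled to the library total, its highest rat was CCI-2, as for Il1b. CCI-2 had 2412 estimated counts in a library of 82926469, where that of CCI-4 summed to 95302927. Neither identifier could be given a gene name. On unlogged CPM, or with Spearman's rho in place of r, other transcripts were the most similar. An r above 0.9 was found for 121 transcripts with Il18 and for 37 with Il1b, against 222 and 64 on unlogged CPM, and a rho above 0.9 for 211 and 86. By likeness to Il1b, Il18 ranked 680 of 23109, and by likeness to Il18, Il1b ranked 940. Likeness over the 8 rats includes the step between the groups, which both cytokines share, so these ranks say nothing of the rats within a group.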

How the data were processed

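The authors made and deposited an estimated count for each Ensembl transcript in each rat, as unscaled whole numbers, which needed no rounding here. The submitters' processing notes name DESeq2 1.16.1 and the genome build rn4. The aligner, the counting program and the annotation release are not given in the sources used here, nor is the way in which reads shared by transcripts of one gene were divided, so a transcript's value can move with that division. Groups and rat numbers were taken from the labels. The smallest chi-square per transcript over the 28 pairs of rats was 51.5, so each library was counted once.

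CCI was compared with Sham by the quasi-likelihood test of edgeR 4.0.16 (R 4.3.3), after filterByExpr and TMM scaling, with robust dispersions, group alone as the term and Benjamini-Hochberg adjustment. The standard error is the log2 fold change over the root of F. Log2 CPM for likeness used a prior count of 2. The edgeR fit was tested on simulated counts, and the other steps were not. Alternatives were DESeq2 1.42.0, limma 3.58.1 (voom), other scalings and filters, the replicate number as a block, each rat left out, and, added after the values were seen, estimated counts divided by 4. Intervals were Clopper-Pearson (scipy 1.17.1). The members and lists were chosen with earlier results of these data known. The named transcripts are the 2 cytokines and, for each, the transcript most like it. Lists of the interleukin-1 family, the inflammasome, signalling below the receptors and cell-type markers were to be described if identifiers could be named. They were not, because 0 of the 41078 identifiers were found in the RefSeq gene table. The promoter motifs were chosen after the values were seen. Library totals, the unit of a value and the spread of 4 rats limit the precision. Where p-values are counted, they weigh the difference of CCI and Sham against the spread between these rats, which the fits estimate with the help of all transcripts.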

Additional observations from a re-analysis of the deposited data

Results flagged for a closer look

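In 18 sets of 4 rats (9 measures in each group), the gap between an end rat and its nearest neighbour was set against the range of the group. It was above Dixon's 95% critical value for 2 of these sets. Chance flags about 1 group in 20 where groups are independent. The 9 measures all come from the same 2 estimated counts of each rat, so 2 of 18 cannot be set against that rate. For the abundance percentile of Il1b in Sham rats, Sham-2 stood at 10.6 where the other 3 stood between 25.9 and 27.8. For the abundance percentile of Il18 in CCI rats, CCI-4 stood at 39.0 where the other 3 stood between 43.1 and 43.6. On CPM the same rats were the lowest, with gaps of 0.754 and 0.805 of the range, below the limit. No cause was tested.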

How the results depend on the processing

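The log2 fold changes of Il1b and Il18 kept their sign in all fits that gave a value. They moved by at most 0.34 and 0.56, beside standard errors of 0.55 and 0.58 in the edgeR fit of the text. The SD of log2 CPM between rats within groups was 1.04 and 0.96. Leaving out 1 rat could hardly move a fold change by that much, so nothing is read from a smaller move. With each rat left out the log2 fold changes ranged from 1.28 to 1.81 for Il1b and from 2.001 to 2.88 for Il18. Requiring 10 counts in each rat gave no value for Il1b, since Sham-2 had 5.

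The number of cytokines called at an adjusted p under 0.05 was 0 in edgeR under every scaling and filter tried, in limma-voom, with a replicate block and with each rat left out (0 to 0), and 1 with DESeq2. At the criteria of the study it was 1 with the replicate block, where Il1b was lost, and 1 to 2 with each rat left out, where Il1b was lost without CCI-2. Over all transcripts, the 89 calls at an adjusted p under 0.05 became 472 with DESeq2, 57 with limma-voom, 2 with the replicate block and 3 (without CCI-1) to 63 (without CCI-4) with each rat left out. Leaving out Sham-1 gave 36 and leaving out CCI-2 or CCI-3 gave 29 or 28, while leaving out Sham-2, Sham-3 or Sham-4 gave 9, 6 or 7. The 605 calls at the criteria of the study became 278 with a fold-change limit of 2, 542 with the replicate block, and 620 to 721 with each rat left out. The mean correlation of deviations within groups was 0.0148 over the 4 same-numbered pairs and -0.00495 over 12 others. So few pairs cannot settle whether rats were paired. The cause of these changes was not tested.

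The median Il18 to Il1b ratio ranged from 1.89 to 2.33 in Sham and from 1.86 to 2.88 in CCI rats with each rat left out, and the ratio of the group sums was 1.56 in Sham and 2.58 in CCI rats. Against all listed transcripts, zeros included, the median percentiles of Il1b were 50.9 in Sham and 56.0 in CCI rats and those of Il18 were 51.1 and 62.0. Against the tested transcripts they were 13.2 and 22.0 for Il1b and 13.6 and 32.7 for Il18, which follows from the number of low transcripts in each background. By Spearman's rho, Il18 ranked 1052 by likeness to Il1b. The most similar transcript of each cytokine changed with rho and on unlogged CPM, but not with a prior count of 0.5.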
